A study of Mus musculus with 10 samples.

Results

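The signalling complex that ON bipolar cells place at the tips of their dendrites was followed through 10 genes: Grm6, Trpm1, Nyx, Gpr179, Lrit3, Gnao1, Rgs7, Rgs11, Pcp2 and Prkca. They were listed by name as genes of the pathway, with earlier results of these data known, and are 10 of the 57010 gene identifiers in the count table, and all 10 passed the filter on low counts with 15539 genes in all. RNA was measured in 10 whole retinas of mice aged 6 to 8 weeks, taken 14 days after the vector was placed in the vitreous. The sample titles name retinas and do not say whether any of them came from the same mouse. The retinas fell into 2 groups of 5: AAV2-GFP, an adeno-associated virus with the AAV2 capsid carrying green fluorescent protein (GFP), and AAV206-GFP, the same reporter in the capsid called AAV206. All retinas had therefore received a vector, and retinas without one were not analysed here. Strain, sex, promoter and dose were not given in the sources used here.

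ON bipolar cells depolarise when light reduces the glutamate released by rods and cones. In the dark, glutamate binds the metabotropic receptor mGluR6, encoded by Grm6, which acts through the G protein subunit encoded by Gnao1 to keep the cation channel TRPM1 closed. Regulators of G protein signalling encoded by Rgs7 and Rgs11, held in place by the orphan receptor GPR179, speed the deactivation of the G protein, and the leucine-rich repeat proteins nyctalopin (Nyx) and LRIT3 are needed to place the channel at the synapse. Loss of several of these genes causes congenital stationary night blindness. Pcp2 encodes a G protein modulator and Prkca the protein kinase C alpha used to label rod bipolar cells. Gnao1 is expressed in many neurons, and LRIT3 has been reported to act from the photoreceptor side of the synapse, so the list is not specific to 1 cell type. In whole tissue, fewer cells of a type and less RNA per cell cannot be told apart.

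The sequence that made the count of Grm6 uncertain is shown first, because reads from it could be assigned to more than 1 gene. It lies at chr11:50851272-50851571 (GRCm38, + strand) in a coding exon of Grm6. In the GENCODE M21 annotation, exons of Grm6 and of Gm12660 (ENSMUSG00000086226), an antisense transcript on the opposite strand, share 599 bases, of which 296 are coding in Grm6. The capitals mark bases that lie in exons of both genes, and the 60 lower-case bases belong to Grm6 alone.
Grm6 coding stretch: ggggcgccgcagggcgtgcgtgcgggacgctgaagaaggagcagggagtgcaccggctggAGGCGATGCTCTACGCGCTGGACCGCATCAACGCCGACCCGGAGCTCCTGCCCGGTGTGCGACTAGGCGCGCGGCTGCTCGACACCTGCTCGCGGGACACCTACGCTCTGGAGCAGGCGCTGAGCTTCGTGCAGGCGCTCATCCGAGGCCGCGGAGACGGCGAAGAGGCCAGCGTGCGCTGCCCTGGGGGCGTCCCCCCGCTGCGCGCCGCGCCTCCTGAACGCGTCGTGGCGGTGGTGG

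Grm6 (ENSMUSG00000000617) carried decimals in all 10 libraries, as an estimator that divides ambiguous reads gives, and so did Gm12660. The estimated counts of the pair added up to a whole number in 10 of 10 libraries (within 0.005 counts). Among the 5503 genes with decimals, Gm12660 was the 1 gene whose values did this for Grm6. Grm6 was given 1401, 1968, 2264, 2085 and 2113 counts in AAV2-GFP replicates 1 to 5, and 1534, 1212, 1144, 1204 and 906 counts in AAV206-GFP replicates 1 to 5. Gm12660 was given 12.4 to 62.6 counts, between 1.3% and 4.91% of the sum of the pair. With both genes summed, an alternative chosen after the data were seen, the log2 fold change between the vectors was -0.65 ± 0.12 (SE, edgeR adjusted p = 0.00311). The other signalling gene with decimals was Pcp2 (ENSMUSG00000004630), also in 10 libraries. Its partner was Pet100, a gene for a mitochondrial assembly factor on the opposite strand, which shares 941 exonic bases with Pcp2 and took 3.52% to 10.7% of the sum of the pair.

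**Figure D1:**
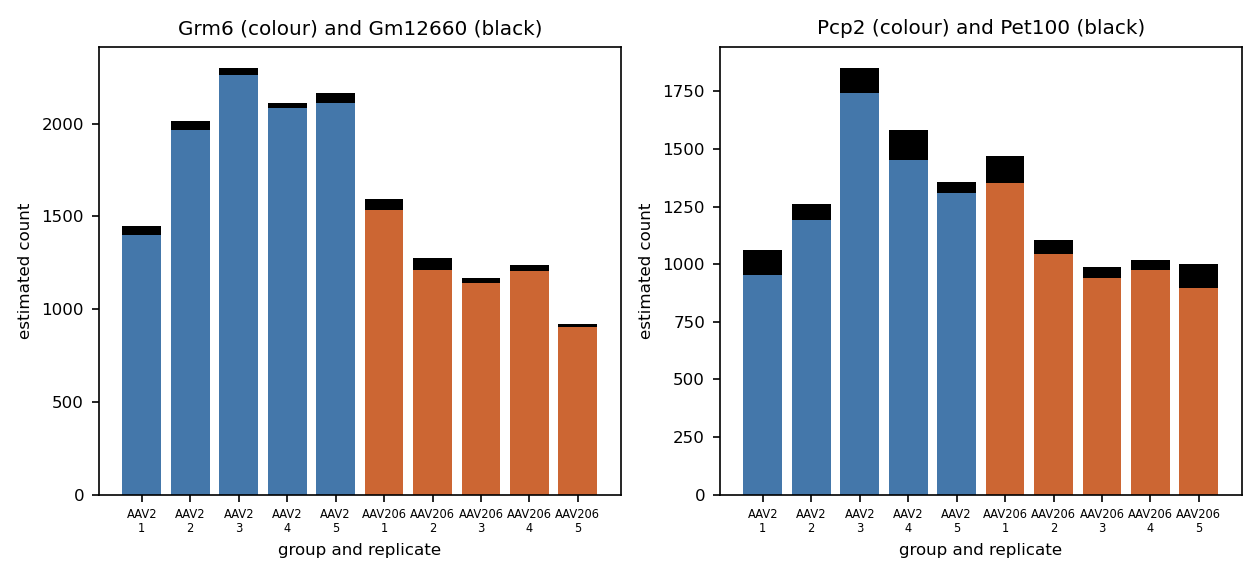
Estimated counts (vertical axis) of Grm6 with Gm12660 stacked above it in black (left), and of Pcp2 with Pet100 in black (right), for each library. The black part is at most 4.91% of the sum for Grm6, and the Grm6 bars of the AAV2-GFP libraries other than replicate 1 are all taller than those of AAV206-GFP.

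Grm6 was the 1 signalling gene that differed between the vectors. Its level, as CPM (counts relative to library size) scaled with trimmed mean of M values (TMM) factors, was 127, 177, 175, 168 and 181 CPM in AAV2-GFP replicates 1 to 5. It was 129, 111, 98.7, 108 and 76.8 CPM in AAV206-GFP replicates 1 to 5. Replicates 2 to 5 of AAV2-GFP lay above every AAV206-GFP retina, whereas AAV2-GFP replicate 1 lay just under AAV206-GFP replicate 1, so the groups overlapped by that pair. The mean of AAV206-GFP was 63.2% of that of AAV2-GFP, a log2 fold change of -0.66 ± 0.12 (standard error, SE; edgeR quasi-likelihood test, adjusted p = 0.00225). Of all tested genes, 11.2% passed an adjusted p of 0.05 in either direction with 5.30% lower and 5.95% higher with AAV206-GFP, so 1 of 10 is near the background. Adjusted p-values for Grm6 lay between 0.000333 and 0.00951 when each library was left out in turn.

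**Figure D2:**
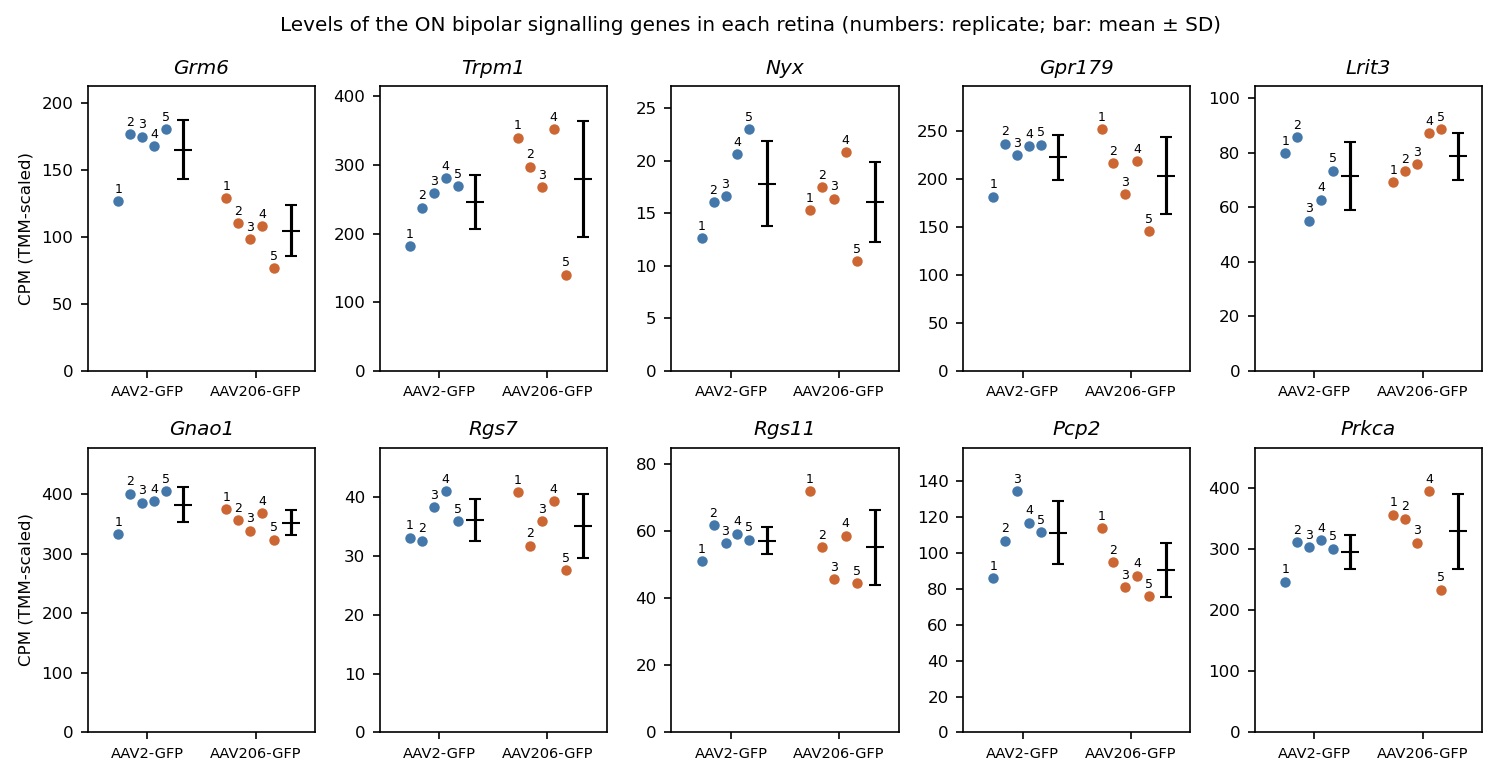
Level of each gene in CPM (vertical axes from 0) in each retina, numbered by replicate, with the mean and SD (n = 5) of each group as a bar. For Grm6 the AAV206-GFP retinas lie between 76.8 and 129 CPM and AAV2-GFP replicates 2 to 5 between 168 and 181 CPM; for the other genes the groups are interleaved.

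The channel gene Trpm1 (ENSMUSG00000030523) did not follow the receptor. Its level was 182, 238, 259, 281 and 269 CPM in AAV2-GFP replicates 1 to 5 and 340, 298, 268, 352 and 141 CPM in AAV206-GFP replicates 1 to 5. Of the AAV206-GFP retinas, 3 were above every AAV2-GFP retina and replicate 5 was below all of them. The log2 fold change was 0.18 ± 0.18 (SE, edgeR adjusted p = 0.542). Without AAV206-GFP replicate 5 it was 0.36, still short of the threshold (edgeR adjusted p = 0.0565).

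Gpr179 (ENSMUSG00000070337), the anchor of the regulators, averaged 222 ± 23.4 CPM in the AAV2-GFP retinas against 203 ± 40.04 CPM in the others (SD, n = 5). Its single retinas were at 181, 236, 225, 234 and 235 CPM with AAV2-GFP and at 251, 216, 184, 218 and 145 CPM with AAV206-GFP. Its log2 fold change, -0.13 with an SE of 0.12, was within the spread of the retinas (edgeR adjusted p = 0.489). Nyx (ENSMUSG00000051228) was the least abundant, at 12.7 to 23.0 CPM with AAV2-GFP and 10.4 to 20.8 CPM with AAV206-GFP. Its log2 fold change was -0.15 ± 0.17 (SE, edgeR adjusted p = 0.617). Its lowest value rested on 123 counts, above the floor of 3 counts (0.235 to 0.273 CPM) under which levels are not distinguished.

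Lrit3 (ENSMUSG00000093865) lay between 55.1 and 85.6 CPM with AAV2-GFP and between 69.2 and 88.4 CPM with AAV206-GFP, a log2 fold change of 0.14 ± 0.11 (SE, edgeR adjusted p = 0.405). It was the 1 gene of the set whose highest AAV206-GFP level was in replicate 5, the retina that was lowest for the other 9.

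The G protein subunit gene Gnao1 (ENSMUSG00000031748) was at 333 to 405 CPM with AAV2-GFP and 324 to 375 CPM with AAV206-GFP, a log2 fold change of -0.12 ± 0.07 (SE, edgeR adjusted p = 0.247). The regulators stood at almost the same mean level in both groups. Rgs7 (ENSMUSG00000026527) was at 36.2 ± 3.57 and 35.1 ± 5.48 CPM, and Rgs11 (ENSMUSG00000024186) at 57.2 ± 4.03 and 55.2 ± 11.2 CPM, with AAV2-GFP and AAV206-GFP in turn (SD, n = 5). Their log2 fold changes were both -0.05, with SE of 0.10 and 0.11 (edgeR adjusted p = 0.810 and 0.802), and the sign of each flipped in 2 of the 10 fits made without 1 library. Rgs11 shares 138 exonic bases with Arhgdig on the opposite strand, yet had whole counts throughout.

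Pcp2 came next to Grm6 in size. It was at 86.1, 107, 135, 117 and 112 CPM in AAV2-GFP replicates 1 to 5 and at 114, 95.04, 80.9, 87.4 and 75.9 CPM in AAV206-GFP replicates 1 to 5. AAV206-GFP replicate 1 and AAV2-GFP replicate 1 again made the groups overlap. Its log2 fold change, -0.30 with an SE of 0.12, did not pass the threshold (edgeR adjusted p = 0.104). It passed without AAV2-GFP replicate 1 (-0.38, edgeR adjusted p = 0.0260) and without AAV206-GFP replicate 1 (-0.39, edgeR adjusted p = 0.0359). Prkca (ENSMUSG00000050965) averaged 295 ± 27.8 CPM in the AAV2-GFP retinas against 329 ± 61.2 CPM in the others (SD, n = 5). This was a log2 fold change of 0.16 ± 0.11 (SE, edgeR adjusted p = 0.378). It was 0.26 without AAV206-GFP replicate 5, short of the threshold (edgeR adjusted p = 0.0590), and 0.0815 without AAV206-GFP replicate 4.

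Across the 10 genes, 7 had a negative and 3 a positive log2 fold change, 2 had an unadjusted p under 0.05 against 28.0% of all tested genes, and the median was -0.08, beside -0.0095 over all tested genes. The groups overlapped in 10 of 10, while 9.78% of all tested genes had no overlap (4.36% lower and 5.41% higher with AAV206-GFP).

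**Figure D3:**
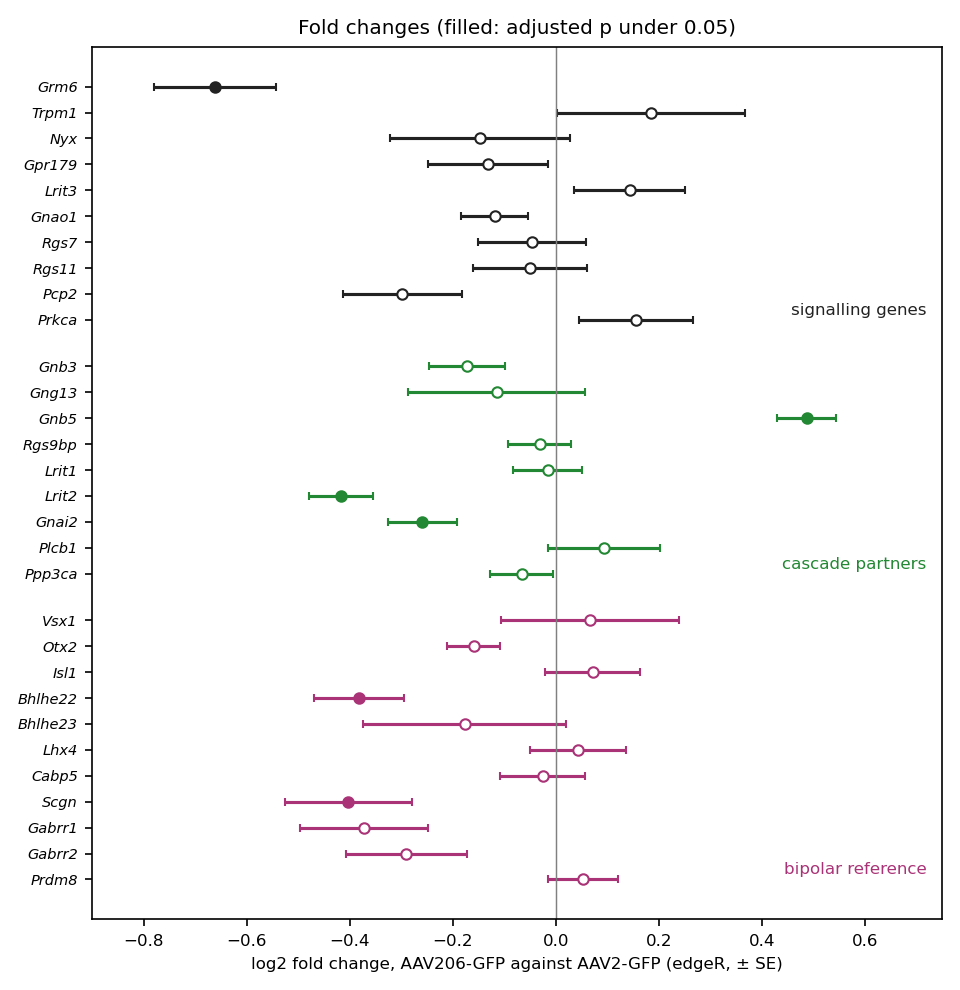
Log2 fold change of AAV206-GFP against AAV2-GFP with its standard error (horizontal axis) for the 10 signalling genes, further genes of the cascade and reference genes of bipolar cells, without those not reported here. Filled points passed an adjusted p of 0.05; Grm6 at -0.66 is the lowest of the points drawn and Gnb5 at 0.49 the highest.

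Per length the order of the genes differed from that of their CPM. CPM divided by the exonic length in kilobases (GENCODE M21, all exons of a gene joined) had a mean over the 10 libraries of 55.2 ± 10.3 for Pcp2, 34.7 ± 5.36 for Prkca and 33.2 ± 2.60 for Gnao1 (SD, n = 10). Lrit3 followed at 27.4 ± 3.94, Grm6 at 24.9 ± 6.92, Gpr179 at 22.3 ± 3.41 and Trpm1 at 17.8 ± 4.38. Rgs11 at 13.4 ± 1.90, Rgs7 at 5.92 ± 0.730 and Nyx at 3.27 ± 0.734 were the least abundant on this scale. Among neighbours in this order, Prkca and Gnao1, Lrit3 and Grm6, and Grm6 and Gpr179 lay within 1 SD of each other. Lrit3 and Gpr179, which have Grm6 between them, did not. The SD of Grm6 over the 10 libraries includes its difference between the groups. By group, Grm6 was at 30.5 ± 4.08 with AAV2-GFP, above Gpr179 at 23.3 ± 2.46, and at 19.3 ± 3.52 with AAV206-GFP, under Gpr179 at 21.3 ± 4.2 (SD, n = 5).

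Whether Grm6 changed more than its partners was tested through the log2 ratio of Grm6 to each other gene in the same retina. Grm6 had already been seen to fall, so these tests ask only about the difference between genes. All 9 ratios were lower with AAV206-GFP and passed an exact permutation test over all relabellings of the retinas (two-sided, Benjamini-Hochberg over the 9 ratios, adjusted p between 0.0102 and 0.0238). The background was high: 71.3% of the ratios of Grm6 to every other tested gene passed as lower, and 76.6% before adjustment. The groups did not overlap in 7 of the 9 ratios, against 34.5% of the ratios to all other tested genes. The ratios to Nyx and Lrit3 overlapped.

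The ratio to Gpr179 had the smallest spread in both groups. Grm6 stood at 0.70, 0.748, 0.780, 0.719 and 0.768 of the CPM of Gpr179 in AAV2-GFP replicates 1 to 5. In AAV206-GFP replicates 1 to 5 it stood at 0.515, 0.513, 0.539, 0.496 and 0.530. AAV2-GFP replicate 1, where Grm6 itself overlapped the other group, kept the lowest ratio of its own group and still lay above every AAV206-GFP retina. The difference in log2 ratio was -0.52 (exact permutation test, two-sided, p = 0.00794, the smallest possible, adjusted p = 0.0102). The ratio to Trpm1 fell by 0.80, that to Prkca by 0.81, that to Lrit3 by 0.82 and that to Pcp2 by 0.37 on the log2 scale.

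**Figure D4:**
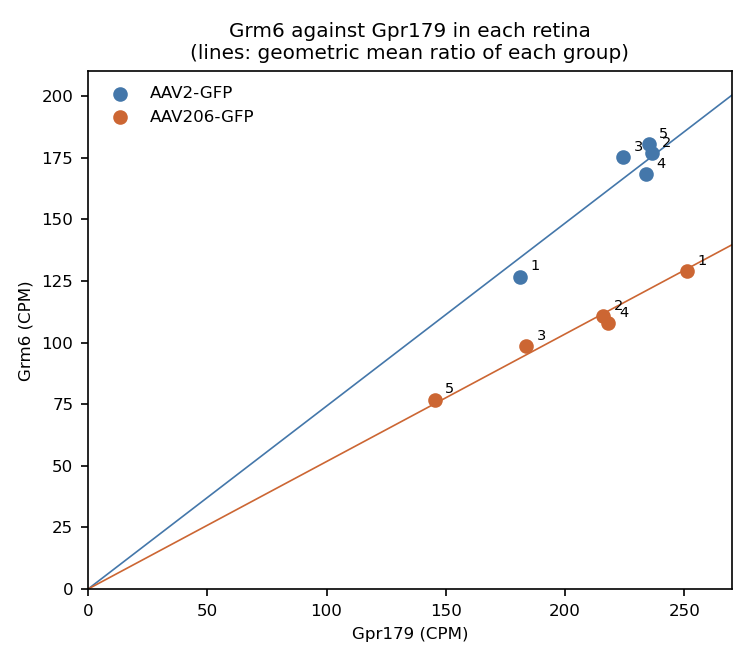
Grm6 (vertical axis) against Gpr179 (horizontal axis), both in CPM, with 1 point per retina numbered by replicate and a line from the origin at the geometric mean ratio of each group. The AAV2-GFP points follow the upper line (ratios 0.70 to 0.780) and the AAV206-GFP points the lower line (0.496 to 0.539).

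A low retina in each group was low for most of the genes. AAV2-GFP replicate 1 was the lowest of its group for 8 of the 10 genes, and AAV206-GFP replicate 5 for 9 of 10. The median deviation of the 10 genes from their group means was -0.27 in AAV2-GFP replicate 1 and -0.38 in AAV206-GFP replicate 5 on the log2(CPM + 0.5) scale. The deviation of Trpm1 in AAV206-GFP replicate 5, at -0.92, was the most negative of all. Lrit3 was above its group mean in both of these retinas, by 0.18 and 0.17.

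**Figure D5:**
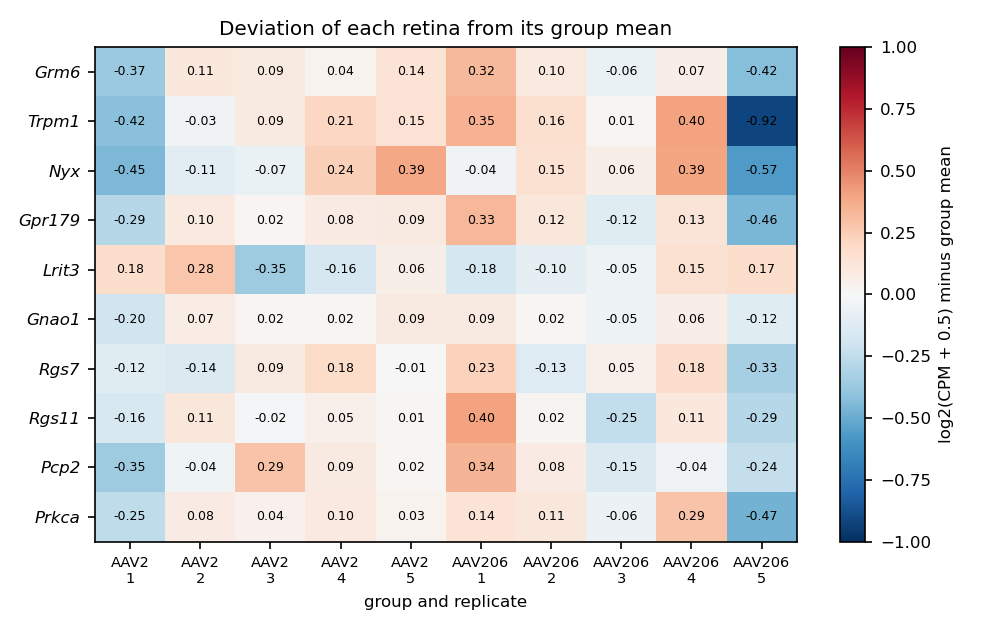
Deviation of log2(CPM + 0.5) from the group mean for each gene (rows) and retina (columns), blue below and red above the mean. The columns of AAV2-GFP replicate 1 and AAV206-GFP replicate 5 are blue for every gene other than Lrit3.

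Markers of bipolar cells were low in the same retinas. The mean of log2(CPM + 0.5) over 12 reference genes (among them Vsx1, Otx2, Isl1, Bhlhe22, Bhlhe23, Lhx4, Cabp5, Scgn, Gabrr1, Gabrr2 and Prdm8) was 5.69 in AAV2-GFP replicate 1 and 5.93 to 6.22 in its group. It was 5.61 in AAV206-GFP replicate 5 and 5.88 to 6.04 in the other AAV206-GFP retinas. Horizontal cell markers were lowest there too, at 3.68 and 3.58, against 4.04 to 4.33 in the other 8 retinas. So were amacrine markers, at 6.875 and 6.88 against 6.908 to 7.034, and OFF cone bipolar markers, at 4.057 and 3.9 against 4.105 to 4.303. Ganglion cell markers were not, at 5.968 and 6.038 against 5.875 to 6.079. The rod list was highest in AAV206-GFP replicate 5, at 11.77, and lowest in AAV2-GFP replicate 1, at 11.56, against 11.57 to 11.64 in the other 8 retinas. AAV2-GFP replicate 1 had the highest microglia level, at 3.99 against 1.34 to 2.40 elsewhere. The part of these differences in the levels of the signalling genes was not tested.

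Relative to those reference genes, Grm6 was lower with AAV206-GFP by 0.54 log2 units, at 1.35 ± 0.13 against 0.81 ± 0.12 (SD, n = 5). The groups did not overlap. In this direction the same held for 0.399% of all other tested genes set against the same reference. It held for 4.36% of all tested genes without a reference. The reference varied between retinas, from 5.61 to 6.22, and was itself lower with AAV206-GFP, at -0.13 log2 units. The share of 0.399% is therefore not a measure of how rare the change of Grm6 is. The exact permutation p was 0.00794, which over the 10 genes gave an adjusted p of 0.0794, short of the threshold. That p is the smallest the test can give. A gene that reaches it alone among the 10 cannot have an adjusted p under 0.0794, whatever its change. The adjusted test could therefore not decide on Grm6 by itself. For Prkca the relative level was higher by 0.27 (exact permutation p = 0.0159, adjusted p = 0.0794), and for Pcp2 it was lower by 0.17 (exact permutation p = 0.0317, adjusted p = 0.106). The other 7 genes had differences between -0.02 and 0.28. Of the reference genes themselves 2 of 12 fell, the transcription factor gene Bhlhe22 (log2 fold change -0.38, edgeR adjusted p = 0.0116) and the calcium-binding protein gene Scgn (-0.40, edgeR adjusted p = 0.0459), with a median of -0.09 over the 12. Otx2 (-0.16), Gabrr1 (-0.37) and Gabrr2 (-0.29) were lower with only an unadjusted p under 0.05 (edgeR), as 28.0% of all tested genes had in either direction. The log2 fold change was negative in 8 of the 12. Of all tested genes, 5.30% passed as lower and 11.2% in either direction. Among 5 rod bipolar markers, Vstm2b fell (-0.52, edgeR adjusted p = 0.0307), and Sebox, Car8 and Rpa1 did not pass, at -0.40, -0.03 and -0.0028. None of the 5 ON cone bipolar and 6 OFF cone bipolar markers passed with edgeR; 2 of the former and 0 of the latter had an unadjusted p under 0.05.

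Of 10 further genes of the cascade, 1 rose and 2 fell, with a median log2 fold change of -0.08. Of all tested genes, 11.2% passed in either direction, and 9.78% had groups that did not overlap. Gnb5, the G protein beta subunit that pairs with Rgs7 and Rgs11 proteins, was at 560 to 673 CPM with AAV2-GFP and 823 to 923 CPM with AAV206-GFP, so the groups did not overlap. Its log2 fold change was 0.49 ± 0.06 (SE, edgeR adjusted p = 7.8e-05). It carried decimals in 9 libraries, shared with Gm19531, which leaves its level uncertain. Lrit2, a relative of Lrit3, fell from 225 to 255 CPM in the AAV2-GFP retinas to 156 to 187 CPM in the AAV206-GFP retinas (log2 fold change -0.42, standard error 0.06, edgeR adjusted p = 0.000619). Gnai2, an inhibitory G protein subunit, fell without overlap (log2 fold change -0.26, edgeR adjusted p = 0.0226). The beta and gamma subunit genes found with Gnao1 in ON bipolar cells, Gnb3 and Gng13, had values of -0.17 and -0.11 (edgeR adjusted p = 0.136 and 0.702). Rgs9bp, an anchor of regulators in photoreceptors, was at -0.03, the photoreceptor gene Lrit1 at -0.02, Plcb1 at 0.09 and Ppp3ca at -0.07, and none of these passed.

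Of 14 genes of the photoreceptor terminal and its trans-synaptic partners, 1 rose and 1 fell, while 11.2% of all tested genes passed in either direction. Cacna1d, a calcium channel subunit, rose (log2 fold change 0.32, edgeR adjusted p = 0.0368), with decimals in 9 libraries. Cabp4, the calcium-binding protein that tunes the release channel of photoreceptors, fell (-0.30, edgeR adjusted p = 0.0194). The adhesion protein gene Elfn1, whose product binds mGluR6 across the synapse, was at -0.11 (edgeR adjusted p = 0.399), and Egflam, which encodes the dystroglycan ligand pikachurin, at -0.13 (edgeR adjusted p = 0.267). None of 12 other glutamate receptor genes and their auxiliary subunit passed with edgeR. Nearest was Grm4, a related metabotropic receptor, at -0.42 (edgeR adjusted p = 0.0508), the 1 gene of that list with an unadjusted p under 0.05. Grik1, the kainate receptor subunit of OFF bipolar cells, was at 0.04 (edgeR adjusted p = 0.857).

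Some markers of other cells also passed with edgeR, beside 11.2% of all tested genes in either direction. With AAV206-GFP, the rod marker Nr2e3 rose, Opn1mw and Gnat2 of 6 cone markers rose while Gngt2 fell, and Pou4f1 of 7 ganglion cell markers fell. Rgr, Cldn5 and C1qa fell among RPE, endothelial and microglia markers, 5 of 7 interferon response genes fell (among them Ifit1, Ifit3, Gbp2 and Oasl2), 2 of 3 lens genes fell (Cryaa and Crybb2), and 4 of 5 erythrocyte genes rose (Hba-a1, Hba-a2, Hbb-bs and Alas2). The levels of Ifit3 and the haemoglobin genes are uncertain, since each had decimals in all 10 libraries. Cryaa was under the floor of 3 counts in AAV206-GFP replicates 2 and 3, at 0.18 and 0.086 CPM. Crybb2 was under it in AAV206-GFP replicates 2 to 4, at 0, 0.17 and 0.09 CPM. C1qa was at 48.6 CPM in AAV2-GFP replicate 1 and at 3.42 to 10.7 CPM in the others of that group. No amacrine, horizontal or Müller glia marker passed with edgeR (1, 0 and 3 had an unadjusted p under 0.05), and 5 lymphocyte markers did not pass the filter. The summed level of the interferon genes was 80.4 to 596 CPM with AAV2-GFP and 86.4 to 105 CPM with AAV206-GFP, that of the lens genes 27.1 to 49.04 and 11.3 to 28.1 CPM, and that of the erythrocyte genes 67.8 to 85.8 and 101 to 319 CPM. The part of the interferon, lens and blood signals in the level of Grm6 was not tested. Without AAV2-GFP replicates 1 and 4, the retinas highest in interferon genes, an alternative chosen after the data were seen, the log2 fold change of Grm6 was -0.77 (edgeR adjusted p = 0.000832). Replicate 1 was also the AAV2-GFP retina lowest in Grm6, so leaving it out had to make the fall larger. The log2 fold change was -0.74 without replicate 1 alone and -0.66 without replicate 4 alone.

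Genes that moved with Grm6 from retina to retina were sought over 12001 genes (mean CPM of 5 or more), as the Pearson correlation of deviations from the group means over 10 libraries. The highest values were those of Appl2 (0.98), Gpr179 (0.97), Ptprz1 (0.97), Lactbl1 (0.96) and Ryr3 (0.95). Gnao1 ranked 9 and Trpm1 ranked 37. None of the first 5 passed the test between groups, with log2 fold changes of 0.13, -0.13, -0.04, 0.24 and 0.03. The genes most like Trpm1 were Prox1 (0.99), Fam135b (0.98), Slit2 (0.98), 1810010H24Rik (0.98) and Ntng1 (0.98), and Prkca ranked 8. Lrit3 had -0.47 with Grm6 and -0.45 with Trpm1. These values share libraries and scaling, and Ryr3 carried decimals in 10 libraries.

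The stretches upstream of Grm6 and Trpm1 are shown as those of the receptor and channel genes. Grm6 fell with AAV206-GFP whereas Trpm1 did not pass, and a part of the promoters in this was not tested. RefSeq promoter windows (GRCm38.p6) of 300 bases, 250 before and 50 after a start, were found for 9 of the 10 genes, in 13 windows. Each was searched on both strands for TAATCC, the core bound by OTX2 and CRX, for the homeodomain core TAATTA and for the E-box CATATG, of which the first and second share their opening letters. TAATCC was present in 1 of 13 windows, that of the first Trpm1 start, against 7.06% of all 32851 windows. TAATTA was present in 1, against 5.29%, and CATATG in 0, against 3.91%. The window with TAATTA is 1 of several partly overlapping windows of Pcp2, so the 13 are not all separate. Trpm1 has a second start, whose window held none of the 3 motifs and is not printed. The 250 bases upstream of the Grm6 start and of the first Trpm1 start follow, from chr11:50850435-50850684 (+ strand) and chr7:64153585-64153834 (+ strand), with the match in capitals, read on the opposite strand.
Grm6 upstream: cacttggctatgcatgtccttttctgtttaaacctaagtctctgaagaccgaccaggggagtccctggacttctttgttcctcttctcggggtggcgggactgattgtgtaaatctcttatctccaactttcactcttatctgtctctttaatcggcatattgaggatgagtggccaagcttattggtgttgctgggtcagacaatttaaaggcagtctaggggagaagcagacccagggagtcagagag
Trpm1 upstream: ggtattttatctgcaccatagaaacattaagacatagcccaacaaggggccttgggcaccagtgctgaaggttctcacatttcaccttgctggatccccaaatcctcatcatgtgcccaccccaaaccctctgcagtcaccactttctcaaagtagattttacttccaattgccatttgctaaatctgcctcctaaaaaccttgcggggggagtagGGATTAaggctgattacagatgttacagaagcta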

How the data were processed

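RNA of 10 retinas, 5 per group, was sequenced as 150-base read pairs, per the labels' protocols. The authors deposited estimated counts for each gene without scaling; the submitters' processing notes name STAR 2.7.10b, RSEM 1.3.1 and the build mm10, and the annotation behind the counts is not given in the sources used here. GENCODE M21 (GRCm38) named 52029 of the 57010 identifiers, so overlaps and exonic lengths taken from it may differ from the annotation counted. Libraries were grouped by title. Total counts were 10989843 to 12752604 per library, and floors cover counting error only. Whether strand was kept in the libraries and used in counting is not given in the sources used here, so reads of a gene and its antisense partner may not have been told apart.

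Counts were rounded to whole numbers and fitted in edgeR 4.0.16 (R 4.3.3): filterByExpr with a minimum count of 10, TMM factors, a quasi-likelihood F test on all 10 libraries without covariates, and Benjamini-Hochberg adjustment over 15539 genes at 0.05. Standard errors came from the log2 fold change and the F statistic (its size over the root of F). CPM are TMM-scaled. Ratios were tested on log2(CPM + 0.5) by exact permutation. The p-values measure the spread between retinas. Same-numbered libraries of the groups did not deviate together (r between -0.11 and 0.09 over 12001 genes), so numbers were not treated as pairs. Named were all 10 signalling genes, all cascade partners, every listed gene past the threshold, and the 5 genes most like Grm6 and Trpm1. Some genes of the lists are not reported here by name. Other list genes were named after their values were seen. The signalling genes and lists were chosen with earlier results of these data known. Alternatives covered scaling, filter, test (DESeq2 1.42.0, limma-voom in limma 3.58.1, robust dispersions), rounding, the replicate block and leaving out libraries. The procedures were tested on simulated data.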

Additional observations from a re-analysis of the deposited data

Results flagged for a closer look

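In groups of 5 retinas, 60 sets of values were examined for 1 retina far from the others (gap to the nearest divided by the range, above 0.710). Chance would give 3 if the sets were separate, and 5 were found. The sets are not separate, since they include ratios of the same genes in the same retinas, so 5 cannot be weighed against 3. All were low values of AAV2-GFP replicate 1. Grm6 was at 127 CPM there against 168 to 181 CPM in its group, Gpr179 at 181 against 225 to 236 CPM, Gnao1 at 333 against 386 to 405 CPM and Prkca at 246 against 300.2 to 314 CPM. The log2 ratio of Grm6 to Gnao1 was -1.39 against -1.20 to -1.14.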

How the results depend on the processing

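The call of Grm6 as lower was kept in all 12 alternatives of scaling, filter, test, rounding, block, summed partners and left-out replicates 1 and 4 (log2 fold change -0.77 to -0.65) and in all 10 fits without 1 library (-0.75 to -0.57). No other signalling gene passed in the 12. In the fits without 1 library, Trpm1 ranged from 0.0881 to 0.36, Prkca from 0.0815 to 0.26, Gpr179 from -0.22 to -0.0317, Nyx from -0.26 to -0.0245 and Lrit3 from 0.0623 to 0.22, none past the threshold. Pcp2 ranged from -0.39 to -0.22 and passed in 2, Rgs7 ranged from -0.108 to 0.0314 (0.00259 without AAV2-GFP replicate 4) and Rgs11 from -0.165 to 0.01995 (0.0110 without AAV206-GFP replicate 3). The number of genes past the threshold was 1747, between 991 and 1912 without 1 library, with 991 without AAV2-GFP replicate 4, 1074 without AAV206-GFP replicate 2 and 1056 without AAV206-GFP replicate 4. It was 985 without AAV2-GFP replicates 1 and 4, an alternative chosen after the data were seen.

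With the replicate block, 1085 genes passed and Grm6 was at -0.67 (edgeR adjusted p = 0.0124). Differences within replicate numbers kept the sizes of all 9 ratios of Grm6, -0.80 to Trpm1, -0.52 to Nyx, -0.52 to Gpr179, -0.82 to Lrit3, -0.55 to Gnao1, -0.61 to Rgs7, -0.60 to Rgs11, -0.37 to Pcp2 and -0.81 to Prkca, but none passed this replicate block, since sign flips of 5 pairs cannot give less than 0.0625. All 9 passed in each of the 10 analyses without 1 library. Without AAV2-GFP replicates 1 and 4 the ratio to Nyx, at -0.56, no longer passed (exact permutation, adjusted p = 0.0536). The cause was not tested.

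Relative to the bipolar reference, using the median of its genes let Grm6 (-0.48) and Prkca (0.32) pass (exact permutation, adjusted p = 0.0397 each) and turned the sign of Nyx (0.0383) and Gpr179 (0.0353). The exact permutation p of Grm6 was 0.00794 with the median as with the mean, where its difference was larger, at -0.54. That of Prkca went from 0.0159 to 0.00794. Whether Grm6 passed after adjustment thus depended on the p of other genes, and the same limit holds without 1 library. Without 1 library, Grm6 ranged from -0.58 to -0.49 and passed in 2 analyses, Trpm1 from 0.16 to 0.42 and Pcp2 from -0.22 to -0.13, passing in 1 each, while Nyx (-0.115 to 0.0601), Gpr179 (-0.0667 to 0.0225), Gnao1 (-0.0365 to 0.0477) and Rgs11 (-0.0049 to 0.12) changed sign.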
